A study of Mus musculus with 6 samples.

Results

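The 8 genes described here, Aqp3, Aqp5, Atp12a, Atp1b1, Atp1b3, Slc9a2, Slc12a2 and Scnn1a, encode channels, pumps and cotransporters that move water and ions across the corneal epithelium. They were chosen by symbol from the 17554 genes of the deposited expression table, and all 8 were present. Their levels were measured by bulk RNA-seq of separated corneal epithelium from 2-month-old mice on a C57BL/6 background, 3 labelled WT (control) and 3 labelled Rela-/- (mutant). The mutants were Krt14-Cre; Rela f/f animals, in which Cre under the Krt14 promoter deletes Rela, the p65 subunit of NF-κB, in keratin 14-expressing epithelial cells and their descendants. In the paper's lineage tracing, this Cre marked the corneal and limbal epithelium as well as the conjunctiva and meibomian glands. The alleles of the controls beyond WT are not given in the sources used here, and the samples are described as independent biological samples. The comparison asks how the transport genes of the epithelium stood in the mutants at this age.

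The corneal epithelium is a stratified barrier between the tear film and the stroma, and the hydration of both sides depends on it. The Na,K-ATPase, built of an alpha and a beta subunit, holds intracellular sodium low. That gradient drives the sodium-potassium-chloride cotransporter and the sodium-hydrogen exchangers, and it draws sodium in through the epithelial sodium channel ENaC. Chloride leaves through apical channels, and water follows through aquaporins.

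Each library held 19492942 to 19733834 expected counts, and 3 counts corresponded to 0.152 to 0.154 CPM, counts scaled to library size. Rela had 36.47, 34.71 and 33.43 FPKM (the authors' unit, reads scaled by transcript length and by library size) in the controls and 4.93, 5.53 and 5.72 in the mutants, so the groups did not overlap and lay in the direction of their labels (log2 fold change -2.75, adjusted p 5.50e-07, edgeR). The summed FPKM of 6 corneal epithelial markers was 45700 to 49760 in the controls and 40300 to 44660 in the mutants, and Krt12, the keratin of corneal epithelium, had at least 17005.01 FPKM in every library. Summed FPKM of 7 keratocyte markers was 0.64 to 0.71 in the controls and 3.46, 2.32 and 1.08 in mutants 1, 2 and 3, and 1 of the 2 tested was called higher. For 8 immune markers it was 84.66 to 95.95 in the controls and 1785, 412.1 and 306.7 in the mutants, of which S100a8 and S100a9, also expressed by stressed epithelium, carried most in the mutants, and 2 of the 4 tested were called. Of all genes tested 7.82% were called higher, and the tested keratocyte and immune markers are too few to set against that share. Without S100a8 and S100a9 the immune sum was 81.24 to 89.16 in the controls and 73.41 to 120.6 in the mutants. Itgam and Cd68 carried almost all of that remainder, so the sum hides the other 4 markers. Of these, Lyz2 (not tested) had 0, 0 and 1 counts in the controls and 23.7, 13 and 3.79 in mutants 1, 2 and 3. Cd68 was also higher in every mutant but was not called. Itgam, Ptprc, Adgre1 and Cd3e overlapped between the groups. For 4 lens markers the sums were 3.8 to 4.74 and 7.24 to 11.72. Muc5ac, the goblet cell mucin, and the vascular markers were at or near 0 in both groups, with at most 1 count of Muc5ac in any library. Mutant 1 thus stood apart from the other 2 mutants in alarmin transcripts and had the highest keratocyte sum, and values without it are given where they differ.

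In control epithelium the 8 genes ranged from a mean of 3854 FPKM to near 0. Aqp5 was the 7th most abundant gene of the table by mean FPKM and Aqp3 the 33rd, followed by Atp1b3 at rank 223, Slc12a2 at 489 and Scnn1a at 1500. Among these 5 genes, the control ranges of neighbours in the order did not overlap. Atp1b1 was at rank 10995, below 1 FPKM, and Slc9a2 and Atp12a were near 0 with overlapping values. In the mutants the order of the first 5 was the same, whereas the ranges of Atp1b1, Atp12a and Slc9a2 overlapped one another.

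**Figure D1:**
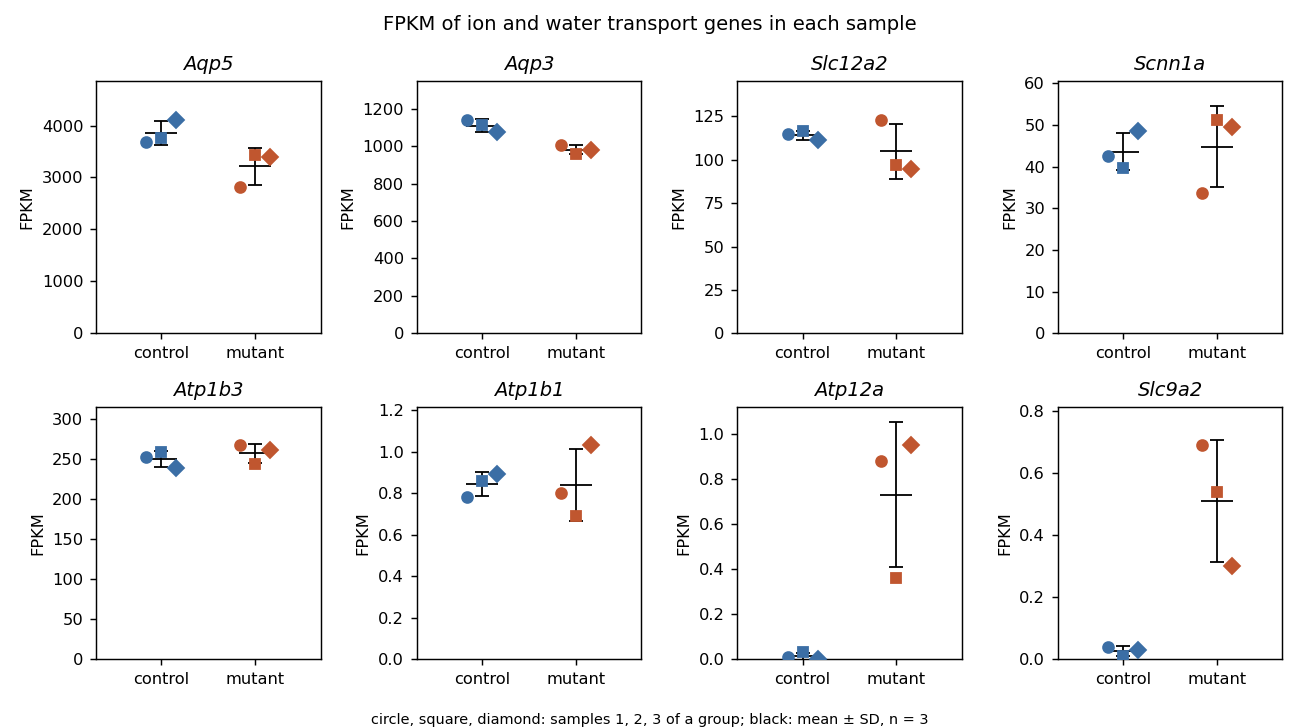
FPKM (vertical axes, linear from 0, a scale per gene) of the 8 genes in the 3 control (blue) and 3 mutant (orange) samples, with the mean and SD in black. Aqp5 and Aqp3 lay lower in all 3 mutants, Atp12a and Slc9a2 lay near 0 in the controls and at 0.30 to 0.95 in the mutants, and the other 4 genes overlapped between the groups.

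Of the 8 genes, 2 had an adjusted p of at most 0.05 (edgeR, quasi-likelihood test), both higher in the mutants, against 13.2% of the 12667 genes tested in either direction, 7.82% called higher and 5.42% called lower. These 2, Atp12a and Slc9a2, passed the low-count filter only through their mutant counts, so their presence among the tested genes already required a difference, and the count of 2 is no evidence about the group. The other 6 passed on control counts alone. None of the 6 was called by edgeR, and DESeq2, which called 1826 of 14457 genes, called 1 (Aqp5). An unadjusted p under 0.05 was found for 2 of the 6 (Aqp5 and Aqp3) and for 3565 of all 12667 genes tested. By FPKM alone, all mutants lay below all controls for 2 genes (15.2% of genes tested), above them for 2 (17.5%), and overlapped them for 4, where groups stood apart in either direction in 32.6% of genes tested. The median log2 fold change of the 8 genes was 0.0, and that of all genes tested was -0.003.

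The aquaporins were the members with the largest read numbers behind them. Aqp5, the water channel of the apical face of corneal and glandular epithelia, lies at chr15:99591028-99594829 on the plus strand (GRCm38). It had 3679.66, 3765.74 and 4115.82 FPKM in the controls and 2808.68, 3431.93 and 3395.64 in the mutants. All 3 mutants lay below all 3 controls, with mutant 1 lowest and mutants 2 and 3 close to each other. The means were 3854 ± 231 and 3212 ± 350 FPKM (SD, n = 3), so Aqp5 took 0.593% of all counts in the controls and 0.495% in the mutants. The log2 fold change was -0.27 (SE 0.0956, 95% interval -0.48 to -0.05), with an unadjusted p of 0.0199 and an adjusted p of 0.0998 by edgeR, and DESeq2 gave an adjusted p of 0.0411 for the same samples. Without mutant 1 the log2 fold change was -0.185. The direction was therefore shared by all 3 mutants, and whether the gene passed 0.05 after adjustment rested on the tool.

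Aqp3 encodes an aquaglyceroporin, which passes glycerol as well as water, and is the water channel of the basal and lateral membranes of stratified epithelia. It lies at chr4:41092724-41098183 on the minus strand. Its FPKM was 1142.34, 1111.45 and 1075.55 in the controls and 1004.12, 960.71 and 980.78 in the mutants. Again no mutant reached the lowest control, and here mutant 1 was the highest of the 3 mutants. The replicates were closer than for Aqp5, with means of 1110 ± 33.4 and 982 ± 21.7 FPKM. The log2 fold change was -0.18 (SE 0.068, 95% interval -0.33 to -0.03, unadjusted p 0.0261, adjusted p 0.118, edgeR), and over all alternatives it stayed between -0.20 and -0.17 without being called. Of the 6 corneal epithelial markers, 1 was called lower and 1 higher, where 13.2% of all genes tested were called. Aldh3a1, the abundant corneal aldehyde dehydrogenase, stood at -0.25 on the log2 scale (adjusted p 0.0466), and Clu, the secreted chaperone clusterin, at 1.23 (adjusted p 9.09e-05, edgeR). The other 4, Krt12, Krt5, Pax6 and Tkt, had uncalled values of -0.30 to -0.07. The summed FPKM of 6 conjunctival markers was 1365 to 1598 in the controls and 1075 to 1192 in the mutants. Krt13 carried most of this sum, with means of 1329 and 1004 FPKM. Of 5 tested, 2 were called lower (Krt13 and Krt8) and none higher, where 5.42% of all genes tested were called lower. Krt4, Krt19 and Spdef were not called (log2 fold changes -1.01, 0.06 and -0.12). Fewer cells of a type and less RNA per cell cannot be told apart in bulk tissue, and the part of these marker values in the aquaporin values was not tested.

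As a share of both aquaporins, Aqp5 made up 76.3%, 77.2% and 79.3% of their FPKM in the controls and 73.7%, 78.1% and 77.6% in the mutants. The mean difference was -1.14 percentage points (two-sided exact permutation p = 0.7), with mutant 1 below every other sample and the other 2 inside the control range. Among the other 10 water and glycerol channels listed, 8 were in the table, 2 passed the filter and 0 were called. Of all genes tested 13.2% were called, and 2 genes are too few to set against that share. Aqp2, the vasopressin-regulated channel of the kidney, had 4.32, 3.11 and 3.58 FPKM in the controls and 1.79, 2.44 and 2.78 in the mutants (log2 fold change -0.65, adjusted p 0.0656), and Aqp7 did not separate. Aqp1, the channel of corneal endothelium and keratocytes, stayed at or below 0.28 FPKM in every sample, and Aqp9 at or below 0.02.

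The 250 bases before the RefSeq start of these 2 genes (GRCm38.p6) are shown because the pair are the most abundant members and had the same direction in all mutants. Both read 5′ to 3′ along the gene, and capitals mark a GC box (GGGCGG, or its complement CCGCCC) or a TATA box (TATAAA). The windows are chr15:99590778-99591027 on the plus strand for Aqp5 and chr4:41098184-41098433 on the minus strand for Aqp3.
Aqp5: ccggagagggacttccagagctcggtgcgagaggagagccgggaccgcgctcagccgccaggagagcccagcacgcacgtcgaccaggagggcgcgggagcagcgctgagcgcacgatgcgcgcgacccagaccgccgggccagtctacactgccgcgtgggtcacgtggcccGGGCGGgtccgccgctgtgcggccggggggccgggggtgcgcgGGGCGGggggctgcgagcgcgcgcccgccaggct
Aqp3: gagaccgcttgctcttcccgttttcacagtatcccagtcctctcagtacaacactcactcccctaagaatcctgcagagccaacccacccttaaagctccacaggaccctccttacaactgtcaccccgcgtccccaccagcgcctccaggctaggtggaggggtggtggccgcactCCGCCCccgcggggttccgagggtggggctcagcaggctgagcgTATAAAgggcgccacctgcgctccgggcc
The Aqp5 window is 78.4% G and C with 2 GC boxes and no TATA box. The Aqp3 window is 64.0% G and C, with 1 GC box and a TATA box that ends 24 bases before the start. Both strands were searched for these motifs, for CCAAT and for the NF-κB consensus GGGRNNYYCC, and no 2 matches overlapped. In that pattern R is A or G, Y is C or T and N is any base. The RefSeq table matched 4 of the 8 genes (Aqp3, Aqp5, Atp1b1 and Atp1b3). It held 2 windows for Atp1b3, of which only the first was searched for the counts given here. This NF-κB consensus was in 0 of the 4 windows searched, 1 per gene, and in 7.3% of all 32851 windows of the table. Shorter or variant forms were not searched, and the Aqp5 window holds gggacttcc, which is shorter than the pattern. GC boxes were in 32.7% of all windows, TATAAA in 12.4% and CCAAT in 33.8%. A match describes letters and not binding, and a consensus missing from these windows says nothing about other sites.

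The sodium pump was represented by its beta subunits, which escort the catalytic alpha subunit to the membrane. Atp1b3 (chr9:96332662-96367438, plus strand in the deposited table and minus strand in RefSeq) had 252.59, 258.38 and 238.52 FPKM in the controls and 266.66, 243.36 and 260.3 in the mutants. The groups overlapped, and the log2 fold change was 0.04 (SE 0.0712, 95% interval -0.12 to 0.20, adjusted p 0.782, edgeR), which bounds any change to between 0.918-fold and 1.15-fold. This is the narrowest interval among the members after Aqp3. Of 50-base stretches of Atp1b3 transcripts, 9.71% also occur in Gm1848.

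Atp1b1 (chr1:164437099-164459117, minus strand), the beta subunit of kidney and many other epithelia, was present at low counts. Its FPKM was 0.78, 0.86 and 0.89 in the controls and 0.80, 0.69 and 1.03 in the mutants, from 35 to 53 counts per library. The mutants bracketed the controls. The log2 fold change of -0.01 had a 95% interval of -0.50 to 0.49 (SE 0.221, adjusted p 0.985, edgeR). Changes between 0.706-fold and 1.40-fold lie within this interval and were not excluded. Nme7 overlaps 18.7% of the exon bases of Atp1b1, and 15.8% of its 50-base stretches also occur in Nme7. Atp1b3 made up 99.6% to 99.7% of the FPKM of the 2 beta subunits in every sample of both groups, and the difference of 0.0118 percentage points was within the spread (exact permutation p = 0.7). Atp1b2, a further beta subunit of the Na,K-ATPase, was below the filter, with at most 0.35 FPKM. Upstream of their starts, the first of 2 Atp1b3 windows, on the RefSeq minus strand, holds 5 GC boxes, and the Atp1b1 window 2 GC boxes and a CCAAT box.

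Atp12a encodes the catalytic subunit of the non-gastric H,K-ATPase, which exchanges protons for potassium. It lies at chr14:56365068-56391562 on the plus strand. Its counts were 1, 2 and 0 in the controls and 68, 28 and 75 in the mutants, or 0.01, 0.03 and 0 FPKM against 0.88, 0.36 and 0.95. Every mutant had at least 28 counts and no control had more than 2. The summed counts of 171 and 3 gave a ratio of 56.9 (95% counting interval 19.1 to 279), and without mutant 1 it was 51.3 (17.1 to 253). The adjusted p was 5.96e-04 (edgeR), in a test that the gene entered only through its mutant counts. Of its transcripts' 50-base stretches, 9.50% occur in the overlapping Gm10873. The mean in the mutants was 0.73 ± 0.322 FPKM.

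Slc9a2, which encodes the sodium-hydrogen exchanger NHE2, lies at chr1:40681712-40768885 on the plus strand. It had 3, 1 and 2 counts in the controls and 47, 37 and 21 in the mutants, or 0.04, 0.01 and 0.03 FPKM against 0.69, 0.54 and 0.30. Mutant 3, lowest for Slc9a2, was the highest for Atp12a, so the 2 genes did not share an order among the mutants. The ratio of summed counts (105 to 6) was 17.5 (7.76 to 48.7), and 14.4 (6.25 to 41.0) without mutant 1. The adjusted p was 9.36e-04 by edgeR, and here too the mutant counts alone admitted the gene to the test. No stretch of Slc9a2 is shared with another gene. In the whole table, 3234 genes had at most 3 counts in every control, and 46 of them had at least 10 in every mutant, as Atp12a and Slc9a2 did. Of the genes with at most 3 counts in every control, 44 passed the filter, and all 44 were called higher, so a call of such a gene carries little information beyond its counts. Both genes also met the study's thresholds, a 2-fold change with an adjusted p no higher than 0.001 (1.37% of tested genes in either direction, 1.31% upward), from which nothing is read here, and 10 of 13 alternatives left 1 or 0 of them past the stricter p.

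Among the other sodium-hydrogen exchangers and their regulators, 10 passed the filter and 0 were called, where 13.2% of all genes tested were called. Slc9a3, the exchanger of gut and kidney, did not exceed 0.01 FPKM anywhere.

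Slc12a2 encodes NKCC1, the cotransporter that loads epithelial cells with sodium, potassium and chloride, and lies at chr18:57877715-57946821 on the plus strand. The controls were tight, at 114.84, 116.29 and 111.23 FPKM, and the mutants had 123.17, 96.89 and 94.81. Mutant 1 lay above every control and mutants 2 and 3 below every control. The log2 fold change was -0.13 (SE 0.107, 95% interval -0.37 to 0.11, adjusted p 0.479, edgeR) with all samples, and -0.27 (adjusted p 0.0313) without mutant 1. The Slc12a2 result thus depended on 1 library, the one with the highest keratocyte and alarmin sums, whose part in it was not tested.

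Slc12a7, the potassium-chloride cotransporter KCC4, carries chloride out of the cell where NKCC1 brings it in. It had 1.69, 1.73 and 1.88 FPKM in the controls and 2.97, 3.16 and 3.38 in the mutants (log2 fold change 0.85, SE 0.106, adjusted p 8.65e-04, edgeR). Slc12a7 was the 1 gene called of 12 tested cation-chloride cotransporters and WNK pathway kinases besides Slc12a2, against 13.2% of all genes tested. Per unit length Slc12a2 exceeded it 59.2-fold to 68.0-fold in the controls and 28.1-fold to 41.5-fold in the mutants (exact permutation p = 0.1, the smallest possible). Slc12a4, another potassium-chloride cotransporter, and the kinases Wnk1, Stk39 and Oxsr1, which set cotransporter activity, had log2 fold changes of 0.06 to 0.13 and adjusted p of at least 0.290 (edgeR).

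Scnn1a encodes the alpha subunit of ENaC, the apical sodium entry channel, and lies at chr6:125321052-125344943 on the plus strand. Its FPKM was 42.63, 39.71 and 48.59 in the controls and 33.58, 51.34 and 49.48 in the mutants. Mutant 1 was the lowest of all samples and mutants 2 and 3 the highest 2, so the coefficient of variation was 21.8% in the mutants and 10.4% in the controls. The log2 fold change was 0.01 (SE 0.149, 95% interval -0.33 to 0.34, adjusted p 0.98, edgeR), and it was 0.172 without mutant 1. The alpha subunit was in large excess over the others, since Scnn1b reached at most 0.82 FPKM and Scnn1g at most 0.42. Neither passed the test, with log2 fold changes of 0.87 (adjusted p 0.192) and -0.28 (adjusted p 0.634).

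Other genes of the ENaC list act on the channel. Of 12 tested genes of the ENaC list besides Scnn1a, 4 were called, 3 higher and 1 lower, where 13.2% of all genes tested were called. Tsc22d3, the glucocorticoid- and aldosterone-induced GILZ, fell from 30.02, 64.12 and 50.99 FPKM in the controls to 9.58, 12.48 and 17.21 in the mutants (log2 fold change -1.87, SE 0.271, adjusted p 0.00199, edgeR). Nedd4l, the ubiquitin ligase that removes ENaC from the membrane, rose from 7.37 ± 0.262 to 10.7 ± 0.725 FPKM (adjusted p 0.00201). The channel-cleaving proteases Furin and Prss8, named here after their values were seen because they were the other 2 called genes of the list, rose from 18.8 ± 0.312 to 26.8 ± 2.71 FPKM (adjusted p 0.00357) and from 74.0 ± 4.30 to 93.8 ± 7.29 FPKM (adjusted p 0.0313). The Prss8 call was lost when mutant 2 or any control was left out (adjusted p 0.0617 to 0.128). St14, another membrane protease of the list, was not called (log2 fold change 0.15, adjusted p 0.237). Sgk1, the kinase that opposes Nedd4l, was 136 ± 6.27 and 118 ± 4.73 FPKM (log2 fold change -0.21, adjusted p 0.101).

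**Figure D2:**
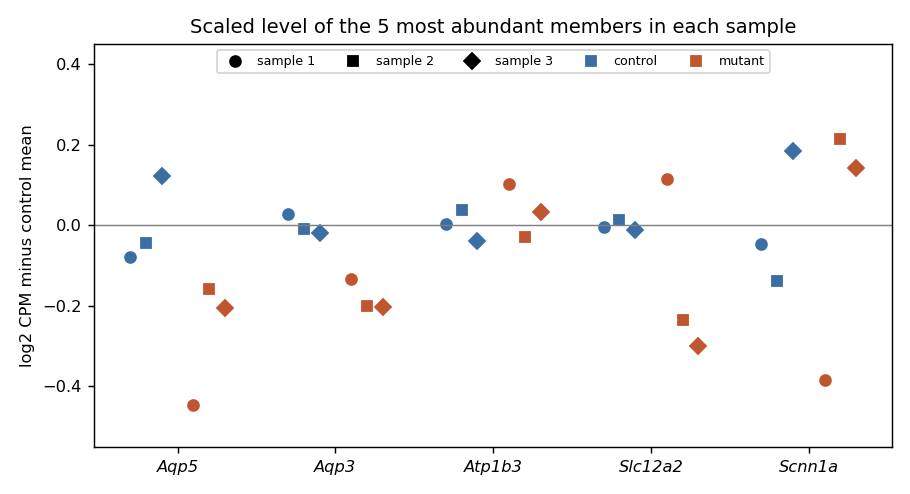
log2 CPM of the 5 most abundant members in each sample, relative to the mean of the 3 controls (vertical axis), with blue for controls, orange for mutants and the shape giving the sample number. Mutant 1 (orange circle) is lowest for Aqp5 (-0.45) and Scnn1a (-0.38) but above the controls for Slc12a2 (0.11), whereas all 3 mutants are below the controls for Aqp3 (-0.20 to -0.13).

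The plot of scaled levels shows the 2 patterns among the abundant members. For Aqp3 and Atp1b3 the 3 mutants stayed close to one another, with coefficients of variation of 2.21% and 4.69%. For Aqp5, Slc12a2 and Scnn1a they ranged from 10.9% to 21.8%, against 2.28% to 10.4% in the controls. In each of these 3 genes mutant 1 was the mutant farthest from the other 2 mutants, though for Slc12a2 it was the nearest to the control mean.

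**Figure D3:**
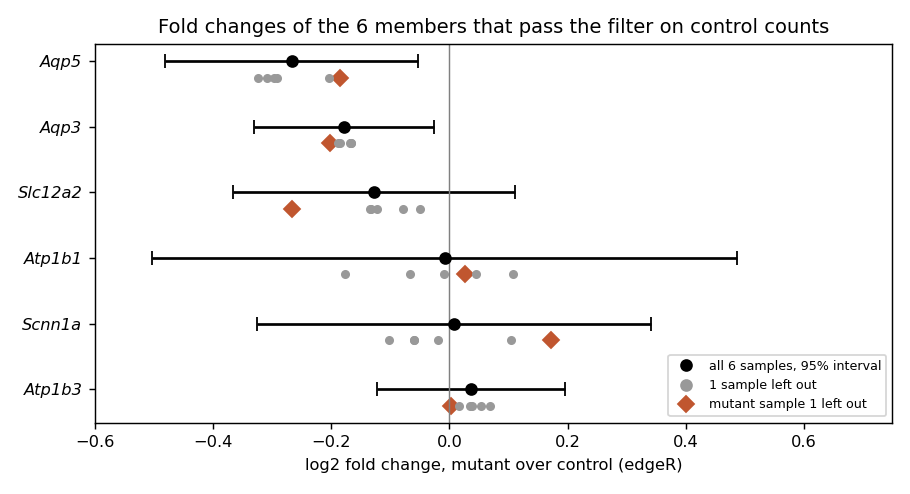
log2 fold change of mutants over controls (horizontal axis) for the 6 members that passed the filter on control counts, as black points with 95% intervals from edgeR, and below each the values with 1 sample left out (gray) or mutant 1 left out (orange diamond). The intervals of Aqp5 and Aqp3 lie below 0 (unadjusted), that of Atp1b1 is the widest at -0.50 to 0.49, and the orange diamond moves Slc12a2 to -0.27 and Scnn1a to 0.17.

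The wider transport lists held 122 genes besides the members, of which 111 were in the table and 70 passed the filter. Of these 70, 15 were called (21.4%, against 13.2% of all genes), 12 higher and 3 lower, and 3 passed the study's thresholds. Among the 61 that passed the filter on control counts alone, 13 were called (21.3%). The lists were chosen with earlier results of these data known, so a share above that of all genes is no evidence about them. The median log2 fold change of the 70 was 0.06.

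On the list of potassium-transporting ATPase subunits and regulators, 4 of the 5 tested genes besides the members were called, 3 higher and 1 lower. Of all genes tested, 13.2% were called, and 5 genes are too few to set against that share. FXYD proteins are single-span partners that set the affinity and turnover of the Na,K-ATPase. Fxyd3 had 218.94, 181.25 and 208.92 FPKM in the controls and 381.66, 381.69 and 367.84 in the mutants (log2 fold change 0.89, SE 0.0875, adjusted p 2.54e-04, edgeR), and 39.9% of its stretches are shared with the overlapping Lgi4. Fxyd5, or dysadherin, had 6, 5 and 6 counts in the controls and 95, 63 and 82 in the mutants, a ratio of 14.1 (8.62 to 24.6), and it passed the filter through the mutants only. Fxyd4 went down, from 7.79 ± 1.03 to 4.34 ± 1.19 FPKM (log2 fold change -0.89, adjusted p 0.0269), a call lost when mutant 3 or any control was left out (adjusted p 0.0525 to 0.114). Fxyd3 remained the dominant partner, at 697 to 811 times Fxyd5 per unit length in the controls and 80.0 to 120 times in the mutants.

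Of 19 tested chloride channel, bicarbonate transporter and carbonic anhydrase genes, 4 rose and 1 fell, where 13.2% of all genes tested were called. The carbonic anhydrases, which make bicarbonate and protons from CO2, included the cytosolic Car13, with 4.93, 3.93 and 3.07 FPKM in the controls and 18.75, 11.45 and 13.64 in the mutants (log2 fold change 1.88, SE 0.205, adjusted p 4.29e-04, edgeR). The membrane-bound Car12 had 1.01, 0.95 and 0.80 FPKM in the controls and 7.89, 2.98 and 3.76 in the mutants (log2 fold change 2.41, adjusted p 0.0019). Both were highest in mutant 1 and separated the groups without it. Clca2 rose from 6.53 ± 0.805 to 11.1 ± 1.09 FPKM (adjusted p 0.00154), and the calcium-activated chloride channel gene Best1 fell from 1.64 ± 0.125 to 0.687 ± 0.131 FPKM (adjusted p 0.00488). Best1 (chr19:9985172-10001633) lies on the chromosome of Rela (chr19:5635891-5649631). The part of sequence linked to the targeted gene in the Best1 value was not tested. Slc26a4, the anion exchanger pendrin, had 4, 5 and 11 counts in the controls and 217, 43 and 54 in the mutants, a ratio of 15.7 (9.98 to 26.0) that was 7.24 (4.44 to 12.4) without mutant 1, and it too passed the filter through the mutants only (adjusted p 0.00784, edgeR, 0.0543 without control 2, and 0.0564 by limma at a pseudocount of 1). Of 10 tested potassium channels, Kcnk1 was the 1 called, against 13.2% of all genes tested. It stood at 2.13 ± 0.190 and 4.59 ± 0.315 FPKM (log2 fold change 1.10, adjusted p 7.87e-04).

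**Figure D4:**
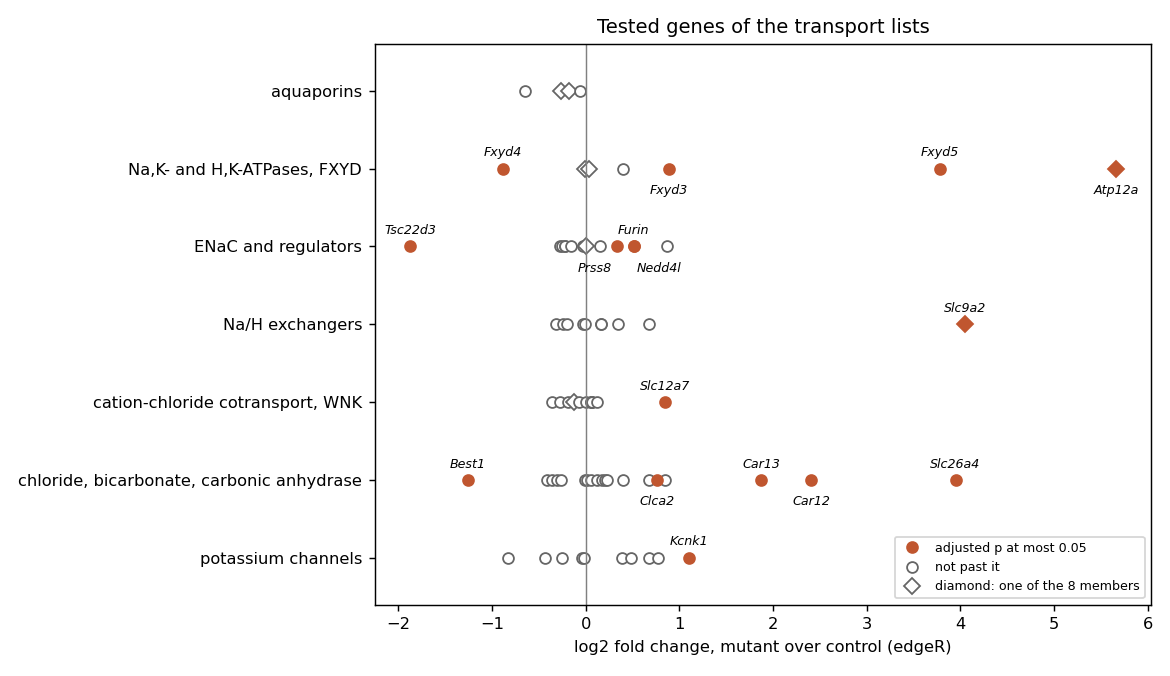
log2 fold change of mutants over controls (horizontal axis) for tested genes of the 7 transport lists (rows, with 3 genes not shown), with called genes filled and named, the others open, and members as diamonds. The called genes lie from -1.87 (Tsc22d3) to 5.66 (Atp12a), and the values of genes with few control counts depend on the prior count. Of 4 tested aquaporins 0 are filled, where 13.2% of all genes tested were called.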

How the data were processed

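Corneal epithelium of 3 control (WT) and 3 mutant (Rela-/-) mice was profiled by bulk RNA-seq. The authors aligned 50-base single-end reads with Bowtie2 (2.2.5) and quantified genes with RSEM (1.2.12). The labels name an Illumina TruSeq kit, whereas the methods of the study name rRNA depletion and a BGISEQ-500. The labels give mm9 as the build, whereas the coordinates in the deposited table are those of GRCm38, which are used here. The table holds RSEM expected counts, as deposited by the authors without normalization, and the authors' FPKM values (reads scaled by transcript length and library size). Columns of the authors' own averages, fold changes, p-values and q-values were not used.

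Expected counts, of which 31.5% to 32.2% per sample were not whole, were rounded. Genes were kept by edgeR's filterByExpr (minimum count 10, minimum total 15), which left 12667 of 17554 genes. Libraries were scaled by TMM and tested by edgeR's quasi-likelihood test (edgeR 4.0.16, R 4.3.3) over all 6 samples with genotype as the only term, with Benjamini-Hochberg adjustment over all genes tested. A call means adjusted p of at most 0.05, and the study's own thresholds were a 2-fold change and adjusted p no higher than 0.001. On simulated counts for 12508 genes of this comparison, 91 of 100 2-fold and 98 of 100 4-fold changes were recovered with 10 false calls. The simulation gave every gene the same dispersion and raised the lowest control means. These rates therefore do not describe genes near 0 in the controls, outlying libraries or changes under 2-fold. Ratios of summed low counts carry exact conditional binomial 95% intervals, which, like the limit of 3 counts, cover counting error only. FPKM shares and ratios were compared by a two-sided exact permutation test, whose smallest possible p with 3 samples against 3 is 0.1. Alternatives were DESeq2 (1.42.0), limma (3.58.1) on log2(FPKM + 1) and log2(FPKM + 0.1), upper-quartile scaling, 2 other filters, the replicate number as a block, and each sample left out in turn.

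The 8 members and the 7 transport lists were chosen with earlier results of these data known. Named genes were the members, called genes of the lists with a fold of at least 1.5 (at most 6 per list), listed partners of the members, and the deleted gene. Of these, 3 genes counted in the lists are not reported here by name. Genes sharing sequence were found as 50-base stretches of one gene's transcripts that also occur in another's, in the GENCODE annotation of GRCm38. Promoter windows came from RefSeq (GRCm38.p6).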

Additional observations from a re-analysis of the deposited data

How the results depend on the processing

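With 3 samples per group, differences within the intervals given for Scnn1a, Atp1b1 and Atp1b3 were not excluded. The p-values set the group difference against the variation between samples of a group. The number of members with adjusted p of at most 0.05, 2 in the main comparison, was 0 when at least 10 counts were required in every sample, because Atp12a and Slc9a2 then could not be fitted. It was 3 with DESeq2 (Aqp5 added) and without mutant 1 (Slc12a2 added), and 2 in the other alternatives. The number past the study's thresholds, 2 in the main comparison, was 0 with that filter, 1 with limma at a pseudocount of 0.1, 0 at a pseudocount of 1, 1 with the replicate block, and 0 to 1 when each sample was left out. Called genes of the transport lists besides members were 12 to 17 over all alternatives, and the log2 fold change of Rela was -2.78 to -2.49. Leaving out single samples turned the difference in the Aqp5 share (-1.97 to 0.258 percentage points, the last without mutant 1) and in the Atp1b3 share (-0.00951 to 0.0462), as well as the uncalled log2 fold changes of Atp1b1 (-0.176 to 0.108), Scnn1a (-0.103 to 0.172), Scnn1g (-0.445 to 0.012), Slc12a4 (-0.036 to 0.125) and Stk39 (-0.044 to 0.267). The Scnn1a value was -0.008 with the replicate block and -0.004 with upper-quartile scaling. The cause of these changes was not tested. Calls over all genes fell from 1678 to 857 without control 2, to 999 without control 3, to 1121 without control 1, to 1185 without mutant 2 and to 1440 without mutant 3, and rose to 1869 without mutant 1.

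Same-numbered samples did not deviate together (correlations of their deviations 0.019, 0.0483 and -0.0464). These values cannot decide whether same-numbered mice were paired by litter or handling, which the labels do not state. With the replicate number as a block, 2 members and 1419 of all genes were called, and Prss8 (adjusted p 0.0711) was not.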

Other observations

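Below the low-count filter, Fxyd2 and Slc9a4 of the transport lists had at most 1 count in each control and more in every mutant. Fxyd2, the gamma subunit of the Na,K-ATPase known from kidney, had 1, 0 and 0 counts in the controls and 22, 18 and 9 in the mutants, a ratio of 48.9 (95% counting interval 8.38 to 1971). Slc9a4, another sodium-hydrogen exchanger, had 0, 1 and 0 counts against 7, 7 and 4, a ratio of 17.97 (2.84 to 749). Neither was tested, and both were chosen after their values were seen. Like Atp12a and Slc9a2, they had at most 3 counts in each control and counts in all 3 mutants, at or below 1.86 FPKM. Other listed genes near 0 in the controls met the same description without a rise. Fxyd1 had 1, 1 and 1 counts in the controls and 1, 1 and 2 in the mutants, and Slc4a4 2.6, 0 and 1.34 against 1.73, 3 and 1. Every mutant library also held more genes with at least 1 count (15621 to 15836) than any control (15325 to 15401).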
